A study of Drosophila melanogaster with 24 samples.

Results

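The genes described here are the digestive proteases and glycosidases of Drosophila melanogaster, taken by name from the deposited gene table: symbols starting with Jon and a digit, Mal-A, Mal-B, Amy- or LMan, and the trypsins named with a Greek letter. The rule took 45 of the 17768 genes in the table. They were 16 Jonah (Jon) serine proteases, 11 trypsins, 8 Mal-A and 2 Mal-B maltases, 2 amylases and 6 LMan alpha-mannosidases. Of these, 43 passed the filter on low counts, and Jon66Cii and LManIV, with means of 0.150 and 0.139 CPM (read counts scaled to a common library size) over all libraries, did not. RNA came from whole male flies aged 1 to 7 days, all described as yw, kept on molasses food at 25 °C. There were 3 genotypes, wild type, +/Reldel (heterozygous) and Reldel/Reldel (homozygous for a deletion of Rel, which encodes the NF-kappaB factor Relish of the Imd immune pathway). Flies of each genotype were either left uninjured or given a traumatic brain injury and frozen 4 h later, which makes 6 groups of 4 libraries. The injured flies were on food for those 4 h, and the labels do not say how the uninjured flies were held before freezing, so injury and handling cannot be told apart.

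In the fly, secreted digestive enzymes are made mainly by the enterocytes of the midgut. Trypsins and Jonah proteases are serine endopeptidases of the same fold that cut dietary protein. Amylase cuts starch to maltose, which the maltases, a family of alpha-glucosidases, cut to glucose. The LMan enzymes are named as lysosomal alpha-mannosidases, which trim mannose from glycoproteins. Amylase transcription in flies is known to fall on a diet rich in glucose, and many midgut enzyme genes respond to the nutritional state.

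Library totals ranged from 6543632 to 14660491 counts, and the members took 0.0739% to 0.778% of a library's counts. Rel had 273 to 1989 counts in every wild-type and heterozygous library and 0 or 1 count in the homozygous libraries, as the labels state. Whether replicate libraries stem from separate vials or days is not stated, so the p-values reflect library-to-library spread that may be technical. Injured wild-type library 4 stood apart: 7 eggshell and oocyte genes summed to 204 CPM there and to at most 2.43 CPM in any other library, although all flies are labelled male. Injured homozygous library 1 also stood apart, with the highest summed level of all 24 libraries for several lists. These were regulators of digestive enzymes (884 CPM, the next at 703), fasting-response genes (1832 CPM, the next at 1536) and peritrophic matrix and brush border genes (1401 CPM, the next at 1170). Accessory gland markers were highest there too (7996 CPM), but uninjured wild-type library 4 was close at 7781 CPM. Without it the median SD within groups over all genes fell from 0.239 to 0.216 and that of the members was 0.994. Calls that change without either library are given beside the results.

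The members lie in clusters (Ensembl release 115, dm6 coordinates). All 11 trypsins lie on arm 2R between 11336840 and 11357537, the 8 Mal-A genes on 2R between 8449664 and 8473961, and Amy-p and Amy-d on 2R between 17118636 and 17126369. The Jonah genes are spread over 2L (Jon25B), 2R (Jon44E), 3L (Jon65A, Jon66C and Jon74E) and 3R (Jon99C and Jon99F), and the Mal-B and LMan genes lie on 2L. Exons of Jon44E, Mal-A1, Mal-A8 and deltaTry overlap a gene on the opposite strand (CG8586, Cyp4e1, mtt and CG13202), and the counting is not stated to use strand, so those levels are uncertain. Counts can also be uncertain between related copies, since reads can be split among similar sequences. Such copies may be Amy-p and Amy-d, gammaTry and deltaTry, and the Jon99C genes, whose sequences were not compared here. The deposited counts per transcript gave Amy-p 2 transcripts with 77.9% and 22.1% of its counts, and 14 members in all had several deposited transcripts.

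Per length of merged exons, the most abundant members were Jon65Aiii, with a mean of 749 ± 473 CPM per kb (SD over 24 libraries), alphaTry with 593 ± 403, Jon65Aiv with 413 ± 313 and betaTry with 331 ± 216. Mal-A1 led the glycosidases with 148 ± 124 CPM per kb, ahead of Mal-A6 with 52.2 ± 46.2 and Mal-A5 with 44.0 ± 9.97. The mannosidase LManII stood at 29.5 ± 14.7, Mal-B2 at 28.3 ± 14.5, Amy-p at 27.7 ± 22.7 and Amy-d at 23.3 ± 21.4 CPM per kb. The SDs of neighbours in this order overlap throughout, so no order between neighbours can be read from them. Jon65Aiii alone held 19.1% of the members' counts and alphaTry 14.97%. At the low end, Jon74E stood at 0.639 ± 0.349, LManIII at 0.780 ± 0.478 and Jon66Ci at 1.28 ± 1.252 CPM per kb.

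Libraries of the same group differed widely in these genes. In whole-fly RNA, fewer gut cells and less RNA per gut cell cannot be told apart. The members summed to 2756, 1078, 724 and 2102 CPM in uninjured wild-type libraries 1 to 4 and to 2696, 1628, 4411 and 1206 CPM in injured ones. In +/Reldel flies the sums were 2048, 2887, 5888 and 1646 CPM uninjured and 6131, 3304, 2456 and 4284 CPM injured. In Reldel/Reldel flies they were 6620.2, 1388, 7745.5 and 2901 CPM uninjured and 2448, 3839, 5646 and 6096 CPM injured. The groups overlap: uninjured homozygous library 2 lies below all but 3 of the other libraries in the plot of summed levels, although libraries 1 and 3 of that group are the highest of all 24.

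**Figure D1:**
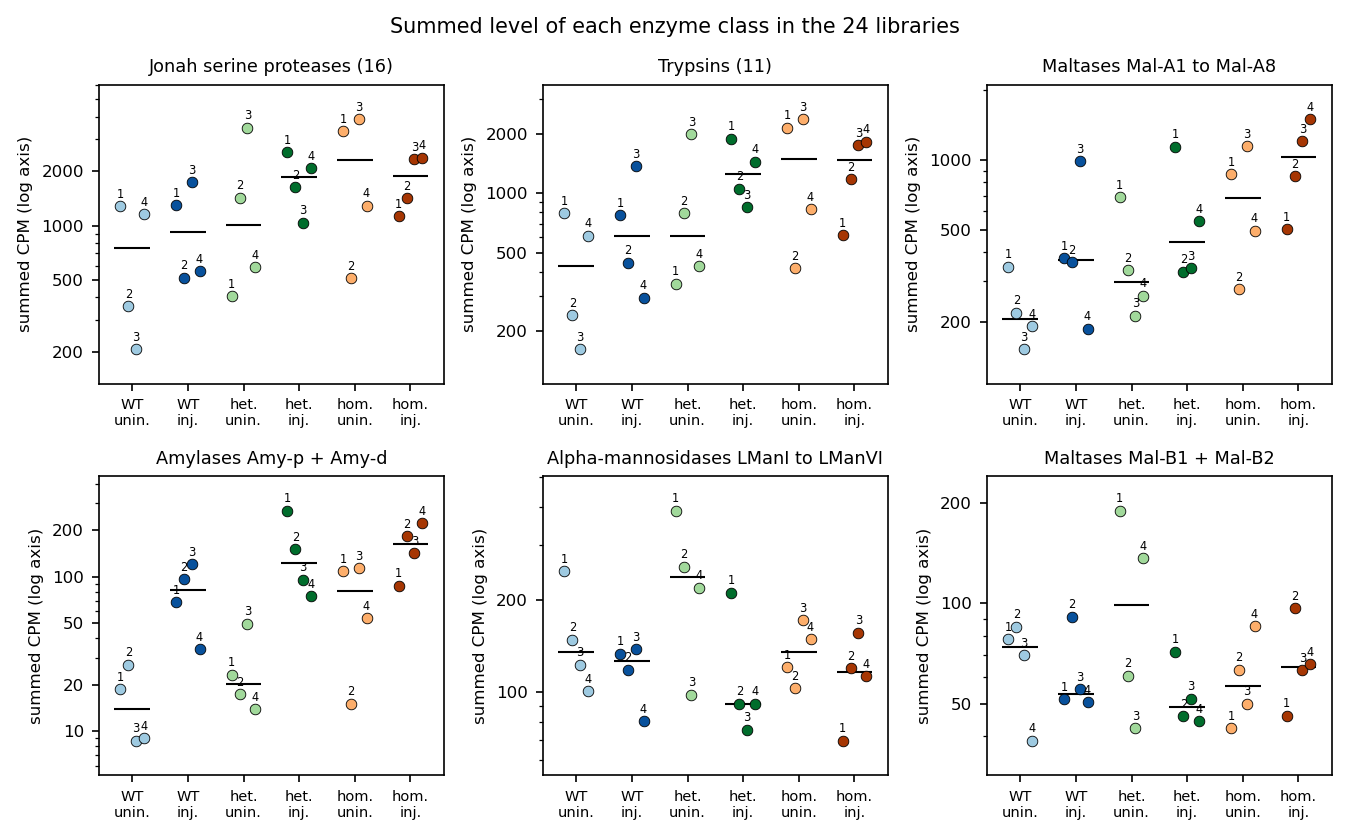
Summed CPM of each enzyme class (y axis, log scale) in the 24 libraries by group (x axis; unin., uninjured; inj., 4 h after injury); each point is a library with its number, and the horizontal line is the group median. Jonah proteases ranged from 207 to 3891 CPM and amylases from 8.72 to 269 CPM over the 24 libraries.

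The spread between libraries of a group was measured as the pooled within-group SD of log2(CPM + 1). Its median over the 43 tested members was 1.02, against 0.239 over all 13868 genes tested. The SD of all 43 lay above the median of all genes, and that of 41 lay above the 90th percentile of 0.397. The exceptions to the latter were Mal-A5, with an SD of 0.344, and Jon74E, with 0.287 at a mean of 0.577 CPM. The largest SDs belonged to the maltase Mal-A7 (1.66), the protease Jon99Fi (1.60) and the mannosidase LManV (1.49). The biological coefficient of variation that edgeR estimated had a median of 0.653 in the members and 0.168 over all genes tested.

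Each group showed this spread. The members' median SD within the group was 1.02 in uninjured wild type, 1.03 in uninjured heterozygotes and 1.28 in uninjured homozygotes, against 0.181, 0.226 and 0.179 over all genes. After injury it was 0.840, 0.644 and 0.722 in the same order of genotypes, against 0.176, 0.205 and 0.275 over all genes. The members' median SD was thus lower after injury in each genotype, a difference that was not tested.

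**Figure D2:**
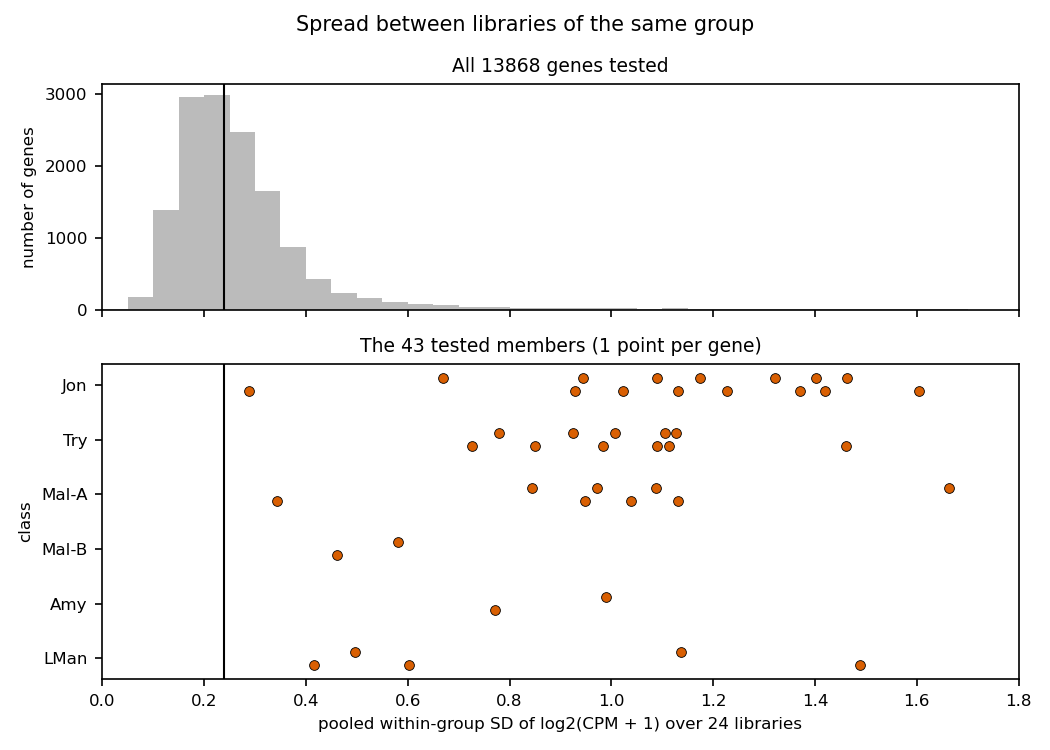
Pooled within-group SD of log2(CPM + 1) over 24 libraries (x axis) for all tested genes (upper panel, number of genes per bin) and for each tested member by class (lower panel, 1 point per gene); the vertical line is the median of all tested genes, 0.239. The lowest points are Jon74E (0.287) and Mal-A5 (0.344), and the highest is Mal-A7 (1.66).

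The Jonah proteases are the most abundant class, and both leading members moved between libraries as the class did. Jon65Aiii and Jon65Aiv hold most of the counts of the class, so this likeness is largely fixed in advance. Jon65Aiii in wild type stood at 519.8, 141, 91.7 and 448 CPM in uninjured libraries 1 to 4 and at 436, 238, 846 and 175 CPM in injured libraries 1 to 4. Jon65Aiii in +/Reldel flies stood at 254, 612, 1279.8 and 307 CPM uninjured and 1164, 545, 516 and 909 CPM injured. Jon65Aiii in Reldel/Reldel flies stood at 1249, 300.5, 1615 and 591 CPM uninjured and 588, 717, 1097 and 1079 CPM injured. Within uninjured homozygotes the values run from 300.5 to 1615 CPM, and uninjured and injured libraries overlap in each genotype.

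Jon65Aiv in wild type stood at 231, 71.2, 40.3 and 185 CPM in uninjured libraries 1 to 4 and at 252, 104, 403 and 87.6 CPM in injured libraries 1 to 4. Jon65Aiv in +/Reldel flies stood at 76.2, 339.9, 913 and 152 CPM uninjured and 667, 482, 255 and 515 CPM injured. Jon65Aiv in Reldel/Reldel flies stood at 861, 112, 992 and 256 CPM uninjured and 323, 348, 651 and 637 CPM injured. It is high and low in the same libraries as Jon65Aiii, such as uninjured heterozygous library 3 (high) and uninjured wild-type library 3 (low). Of the 15 Jonah genes tested, 14 were lowest in uninjured wild-type library 3 of that group, and 13 were highest in uninjured heterozygous library 3. The exception in behaviour was Jon74E, at 0 to 1.32 CPM, whose deviations from the group mean had a Spearman rho of 0.216 with those of the other members' sum.

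Trypsins followed the Jonah genes. alphaTry in wild type stood at 396, 107, 75.2 and 279 CPM in uninjured libraries 1 to 4 and at 375, 206, 665 and 134 CPM in injured libraries 1 to 4. alphaTry in +/Reldel flies stood at 192, 367, 905 and 209.6 CPM uninjured and 954, 479, 396 and 691 CPM injured. alphaTry in Reldel/Reldel flies stood at 1079, 192, 1252 and 424 CPM uninjured and 311, 608, 942 and 992 CPM injured. Its lowest and highest libraries are those of Jon65Aiii. betaTry in wild type stood at 226, 91.9, 57.2 and 196 CPM in uninjured libraries 1 to 4 and at 227, 175, 469.8 and 87.2 CPM in injured libraries 1 to 4. betaTry in +/Reldel flies stood at 94.4, 236, 737 and 165 CPM uninjured and 664, 407, 328 and 508 CPM injured. betaTry in Reldel/Reldel flies stood at 765, 175, 786 and 283 CPM uninjured and 235, 435, 575 and 584 CPM injured. betaTry is lowest in uninjured wild-type library 3 and highest in uninjured homozygous library 3, the same libraries as alphaTry. The other 9 trypsins had mean levels between 3.02 CPM (gammaTry) and 73.2 CPM (epsilonTry). lambdaTry stood at 0.165 CPM in uninjured homozygous library 2 against 7.58 to 20.98 CPM in the other 3 libraries.

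Among the glycosidases, Mal-A1 and Mal-A6 were the most abundant maltases. Mal-A1 in wild type stood at 149.6, 72.9, 19.1 and 46.6 CPM in uninjured libraries 1 to 4 and at 165, 144, 481 and 66.8 CPM in injured libraries 1 to 4. Mal-A1 in +/Reldel flies stood at 366, 156, 87.4 and 91.4 CPM uninjured and 624, 130.1, 137 and 248 CPM injured. Mal-A1 in Reldel/Reldel flies stood at 474, 81.1, 600.4 and 221 CPM uninjured and 241, 428, 639 and 813 CPM injured. Uninjured and injured libraries overlap in each genotype, and wild-type library 3 is the highest of the injured wild type. Mal-A6 in wild type stood at 43.6, 34.1, 11.6 and 23.6 CPM in uninjured libraries 1 to 4 and at 64.8, 75.2, 225 and 24.4 CPM in injured libraries 1 to 4. Mal-A6 in +/Reldel flies stood at 82.8, 41.6, 30.6 and 23.5 CPM uninjured and 293, 53.9, 68.5 and 121 CPM injured. Mal-A6 in Reldel/Reldel flies stood at 199, 49.4, 236 and 114 CPM uninjured and 153, 219, 299 and 382 CPM injured. Uninjured homozygotes (49.4 to 236 CPM) lie above uninjured wild type (11.6 to 43.6 CPM) with no overlap. In uninjured heterozygotes the maltases and the proteases parted: library 1 was highest for 9 of 10 maltases and lowest for 11 of 15 Jonah genes, while library 3 was highest for 13 Jonah genes and 10 of 11 trypsins and lowest for 7 maltases.

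Mal-A5 and the Mal-B genes kept to narrower ranges. Mal-A5 stood between 61.1 and 136 CPM over all 24 libraries, a ratio of 2.22 between the highest and the lowest, where the ratio was 42.7 for its neighbour Mal-A1 and 33.0 for Mal-A6. Mal-B2 stood between 36.6 and 186 CPM and was highest in uninjured heterozygous libraries 1 and 4.

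The amylases were low in uninjured wild type and higher in injured flies. Amy-p in wild type stood at 9.51, 13.4, 6.10 and 6.21 CPM in uninjured libraries 1 to 4 and at 45.5, 57.3, 57.5 and 23.4 CPM in injured libraries 1 to 4. Amy-p in +/Reldel flies stood at 12.47, 9.30, 30.4 and 7.54 CPM uninjured and 146, 98.9, 56.0 and 47.5 CPM injured. Amy-p in Reldel/Reldel flies stood at 50.1, 7.44, 57.1 and 23.7 CPM uninjured and 61.5, 94.6, 80.0 and 107 CPM injured. Amy-p in injured flies lies above uninjured flies in each genotype with no overlap. Amy-d in wild type stood at 9.23, 13.6, 2.62 and 2.80 CPM in uninjured libraries 1 to 4 and at 23.0, 39.5, 63.4 and 10.7 CPM in injured libraries 1 to 4. Amy-d in +/Reldel flies stood at 10.8, 8.11, 19.3 and 6.37 CPM uninjured and 123, 51.9, 40.1 and 27.8 CPM injured. Amy-d in Reldel/Reldel flies stood at 58.6, 7.69, 56.5 and 30.1 CPM uninjured and 26.05, 89.2, 62.4 and 115 CPM injured. Amy-d overlaps between uninjured and injured flies in wild type and in homozygotes and does not overlap in heterozygotes.

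LManII and LManVI were the most abundant mannosidases. LManII in wild type stood at 130.0, 117, 107 and 80.4 CPM in uninjured libraries 1 to 4 and at 78.4, 98.96, 86.0 and 66.6 CPM in injured libraries 1 to 4. LManII in +/Reldel flies stood at 304, 175, 68.6 and 179 CPM uninjured and 136, 56.7, 56.6 and 73.4 CPM injured. LManII in Reldel/Reldel flies stood at 85.1, 89.7, 108 and 115 CPM uninjured and 60.3, 94.0, 119 and 84.2 CPM injured. LManII stands out in uninjured heterozygous library 1 and lies between 56.6 and 179 CPM elsewhere, with overlap between uninjured and injured libraries in each genotype. LManVI in wild type stood at 50.1, 9.52, 4.32 and 6.84 CPM in uninjured libraries 1 to 4 and at 23.1, 4.58, 24.1 and 4.87 CPM in injured libraries 1 to 4. LManVI in +/Reldel flies stood at 24.3, 33.3, 12.2 and 11.5 CPM uninjured and 34.2, 13.6, 7.18 and 7.63 CPM injured. LManVI in Reldel/Reldel flies stood at 14.3, 3.23, 27.0 and 9.72 CPM uninjured and 1.55, 10.97, 14.4 and 11.9 CPM injured. LManVI is highest in uninjured wild-type library 1 and lowest in injured homozygous library 1. LManI in wild type stood at 13.2, 8.31, 8.95 and 7.22 CPM in uninjured libraries 1 to 4 and at 7.61, 11.5, 9.16 and 5.75 CPM in injured libraries 1 to 4. LManI in +/Reldel flies stood at 24.4, 16.6, 6.92 and 16.1 CPM uninjured and 11.1, 7.08, 5.65 and 6.54 CPM injured. LManI in Reldel/Reldel flies stood at 7.28, 8.93, 10.3 and 9.98 CPM uninjured and 6.36, 7.90, 11.5 and 8.79 CPM injured. LManI shares its highest library with LManII, its neighbour in the genome.

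**Figure D3:**
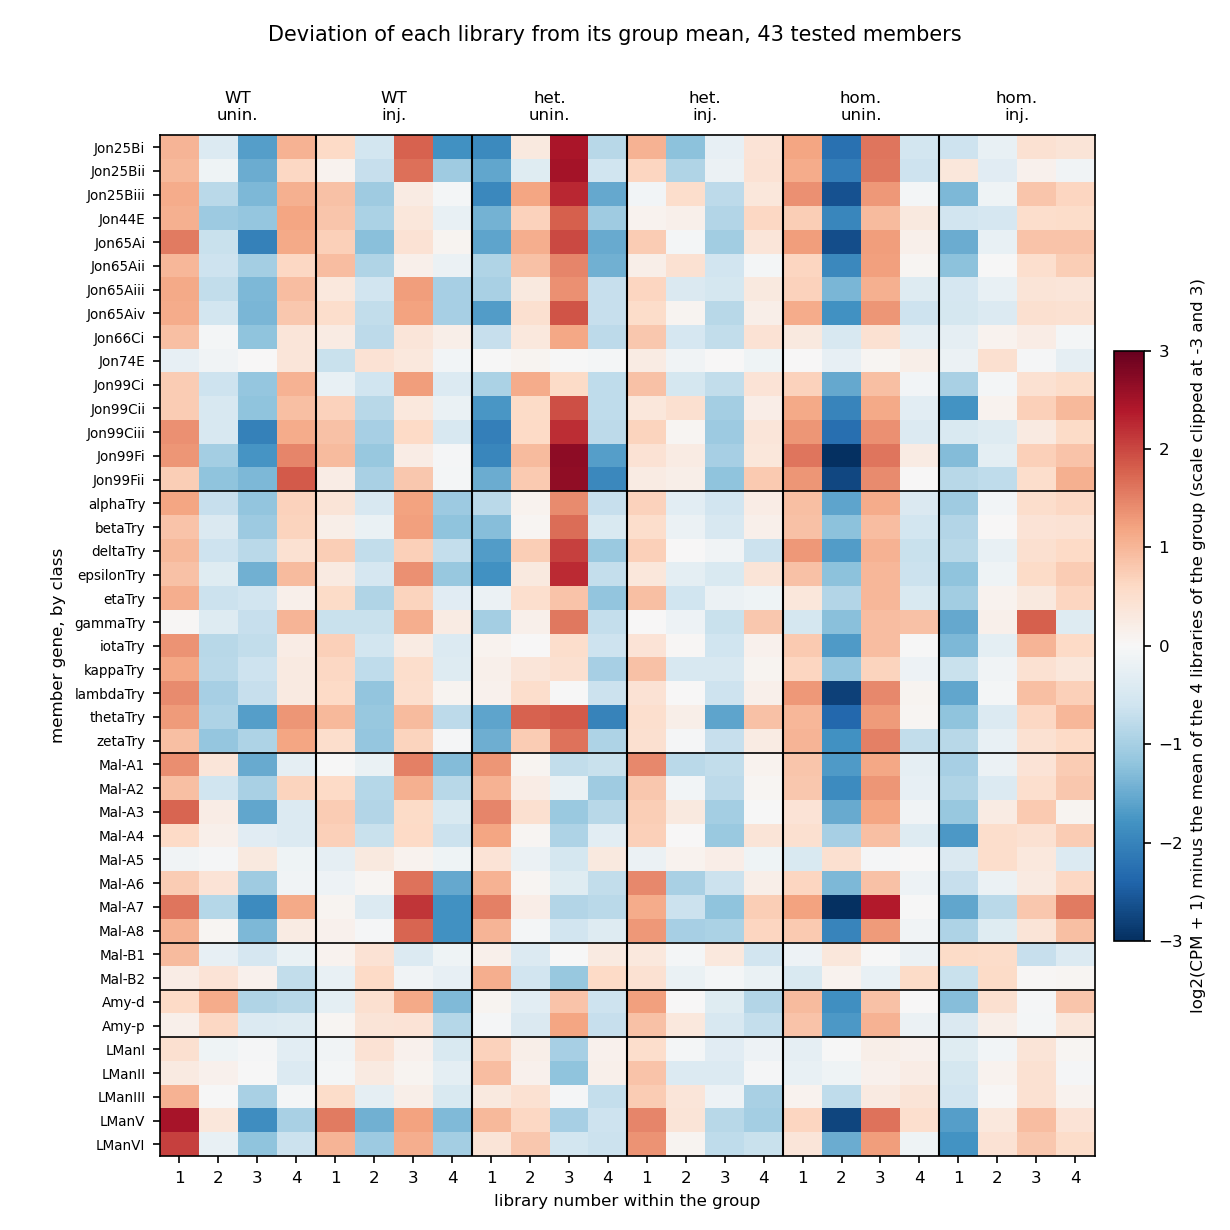
Deviation of log2(CPM + 1) in each library (x axis, 4 per group) from the mean of its group for the 43 tested members (y axis, by class), red above and blue below the mean, with the colour scale clipped at -3 and 3. Uninjured homozygous library 2 was the lowest of its group for 38 members, and in uninjured heterozygous libraries 1 and 3 most Mal-A genes have the opposite colour to the Jon genes.

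The shared pattern can be counted library by library. Uninjured homozygous library 3 was the highest of its group for 34 of 43 members and library 2 the lowest for 38. Injured homozygous library 1 was the lowest for 40 members, and injured heterozygous library 1 the highest for 34. In uninjured wild type, library 1 was highest for 28 and library 3 lowest for 32, and in injured wild type library 3 was highest for 21 and library 2 lowest for 22.

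As a description over the 24 libraries, which share their depth and their RNA, each member's deviations from the group means were set against those of the sum of all other members. Spearman rho was 0.979 for alphaTry, 0.944 for Jon65Aiii, 0.943 for betaTry and 0.936 for both Jon65Aiv and epsilonTry. It was 0.702 for Amy-p, 0.695 for Mal-A1 and 0.683 for Mal-A6. The lowest values were those of Mal-A5 (-0.46), Mal-B2 (-0.33), Mal-B1 (-0.17), LManII (0.0565) and LManI (0.175). Between classes, rho was 0.944 for Jonah proteases with trypsins, 0.557 for Jonah proteases with the Mal-A genes other than Mal-A5, 0.679 for trypsins with amylases and 0.641 for those Mal-A genes with amylases. With the library total, rho lay between -0.218 (Jonah proteases) and 0.0165 (amylases).

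**Figure D4:**
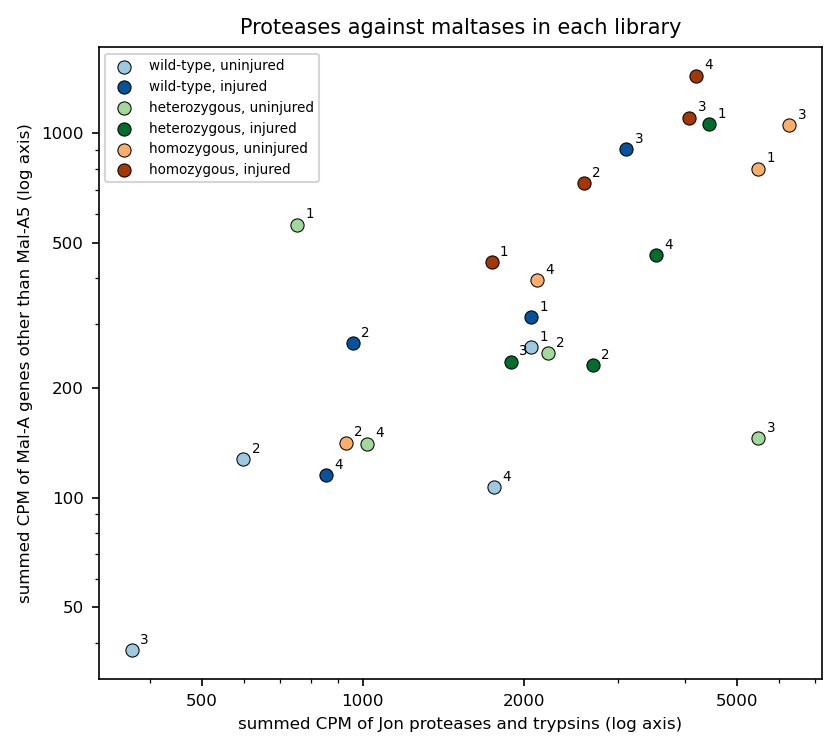
Summed CPM of the Mal-A genes other than Mal-A5 (y axis, log scale) against summed CPM of Jonah proteases and trypsins (x axis, log scale) in the 24 libraries, coloured by group and numbered within the group. Uninjured heterozygous libraries 1 and 3 have the lowest and the highest ratio of proteases to these maltases, 1.34 and 37.6.

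The ratio of proteases to the Mal-A genes other than Mal-A5 lay within 4.69 and 16.5 in wild-type flies without injury and within 3.44 and 7.41 after it. Heterozygotes ranged from 1.34 up to 37.6 before injury, where the injured range was 4.19 up to 11.6. Homozygotes kept narrower ranges, 5.35 up to 6.85 uninjured against 2.92 up to 3.93 injured. Uninjured and injured libraries overlapped in wild type and heterozygotes and did not in homozygotes. The summed amylases divided by the summed proteases gave 0.0163 to 0.0254 in uninjured and 0.0349 to 0.0710 in injured homozygotes, without overlap. The same ratio overlapped in wild type (0.00512 to 0.0450 and 0.0332 to 0.101) and in heterozygotes (0.00785 to 0.0309 and 0.0214 to 0.0606). These ratios were chosen after their values were seen and were not tested.

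Outside the members, the 5 genes whose library pattern was most like the members' sum were hiro, with a rho of 0.967, CG42397 (0.946), Myo61F (0.945), CG31266 (0.943) and Bace (0.942). Myo61F encodes a class I myosin of the gut brush border and Bace an aspartic protease. Of the 100 tested genes most alike, 14 were members, but here each member was ranked against a sum that holds its own counts. That count is thus partly fixed in advance. The sum is also weighted towards the most abundant proteases, so each rho with it leans towards likeness to those genes. For summed lists of other gut enzymes, rho with the members' sum was 0.979 for 17 carboxypeptidases and aminopeptidases, 0.932 for 22 other serine proteases and 0.904 for 15 lipases, with medians over single tested genes of 0.847, 0.855 and 0.811. The sum of 15 other glycosidases had a rho of 0.793, but the median of its genes was 0.205. The sum of the 11 peritrophic matrix and brush border genes had a rho of 0.496, and the median of its genes was 0.682. For 18 regulators of digestive enzymes the sum had -0.2 and the median of its genes was -0.0535. For 11 fasting-response genes these values were -0.159 and -0.237.

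Markers of other tissues were set against the same sum, since a whole fly yields RNA from all of them. The 5 accessory gland markers found, of 6 listed, had a rho of -0.673. Their summed level was 5809 to 7781 CPM in uninjured and 5532 to 6669 CPM in injured wild type, 5355 to 6619.9 and 3525 to 6854 CPM in heterozygotes, and 3709 to 6568 and 3193 to 7996 CPM in homozygotes. The 5 fat body markers had a rho of -0.603 and summed to 315 to 473, 255 to 398, 242 to 618, 213 to 326, 378 to 818 and 392 to 511 CPM in the same order of groups. Only 2 of these 5 passed the filter on low counts. apolpp alone had a mean of 471 CPM in uninjured and 344 CPM in injured flies. The fat body sum and its rho are thus mostly those of apolpp. The 7 eye markers had a rho of -0.119 and the 6 testis markers of 0.314. Over single tested genes the median rho was -0.617 for accessory gland, -0.39 for eye, -0.303 for fat body and 0.0178 for testis markers, so the order of eye and fat body differs from that of the sums. No marker found was at 0 in every library. The part of tissue make-up in the members' spread was not tested.

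After brain injury, amylase rose in wild type and in heterozygotes. A gene is called here when its Benjamini-Hochberg adjusted p over all 13868 genes, from edgeR's quasi-likelihood test, is under 0.05, and changes are log2 fold changes ± SE with 4 libraries a group. In wild type Amy-p rose by 2.38 ± 0.52 (adjusted p = 0.00768), from a mean of 8.80 to 45.9 CPM. It was the only member of 43 called, where 3.79% of all genes were called. It was also the only member whose groups did not overlap, against 13% of all genes. The call held with each of the 8 libraries left out in turn (largest adjusted p 0.0488), and without injured library 4 the change was 2.61 (adjusted p = 0.00495). Amy-d, with an adjusted p of 0.0597 over all libraries, was also called without that library (2.60, adjusted p = 0.0314) or without injured homozygous library 1 (2.29, adjusted p = 0.0448), for 2 members each.

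The other members did not pass in wild type. The smallest p in each class belonged to Mal-A6 (1.79 ± 0.62, adjusted p = 0.128), Jon99Ci (-1.24 ± 0.71, adjusted p = 0.458), LManIII (-0.90 ± 0.55, adjusted p = 0.501) and deltaTry (1.09 ± 0.85, adjusted p = 0.625) in edgeR's test. The median change of the 43 members was 0.43, against -0.01 over all genes. By class, the medians were 1.63 for Mal-A, 0.59 for trypsins, 0.21 for Jonah proteases and -0.40 for LMan.

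In heterozygotes both amylases rose and 2 mannosidases fell. edgeR gave Amy-p a change of 2.53 ± 0.51 (adjusted p = 0.00351), from 14.9 to 87.1 CPM, and Amy-d 2.43 ± 0.65 (adjusted p = 0.0288), from 11.2 to 60.7 CPM. LManII changed by -1.17 ± 0.32 (adjusted p = 0.0323), from 182 to 80.7 CPM, and LManI by -1.07 ± 0.30 (adjusted p = 0.0358). These were 4 of 43 members, where 4.74% of all genes were called. Only the amylases did not overlap between the groups, against 8.32% of all genes. Amy-p held with each library left out (largest adjusted p 0.0197).

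The other calls in heterozygotes rested on particular libraries. Without uninjured library 1, where LManI and LManII were highest, their adjusted p was 0.221 and 0.233. The call of LManII was also lost without uninjured library 2 (adjusted p = 0.0607) or 4 (0.0635) or injured library 2 (0.134), 3 (0.093) or 4 (0.0907). The call of LManI was lost without the same libraries, at adjusted p of 0.077, 0.0746, 0.11, 0.0994 and 0.0993. Amy-d lost its call without uninjured library 1 (adjusted p = 0.0924), 2 (0.0891) or 4 (0.102) or injured library 1 (0.113) or 2 (0.0522). Members with the smallest p in the other classes were Mal-B2 (-1.09 ± 0.37, adjusted p = 0.0981), betaTry (0.63 ± 0.58, adjusted p = 0.616) and Jon99Ci (-0.63 ± 0.66, adjusted p = 0.67). The members' median change was 0.13, against -0.01 over all genes.

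In homozygotes no member was called after injury by edgeR or by DESeq2, where edgeR called 5.86% of all genes, and 2 members had an unadjusted p under 0.05. Amy-p had a change of 1.31 ± 0.48 (adjusted p = 0.109), from 34.6 to 85.8 CPM, with no overlap between the groups, as in 11.6% of all genes. Mal-B1 followed with 0.91 ± 0.38 (adjusted p = 0.154), then Jon65Ai (-1.48 ± 0.84, adjusted p = 0.301), thetaTry (-1.05 ± 0.86, adjusted p = 0.498) and LManV (-1.08 ± 1.00, adjusted p = 0.56). The members' median change was -0.14, with -0.78 for Jonah proteases and 0.58 for Mal-A.

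**Figure D5:**
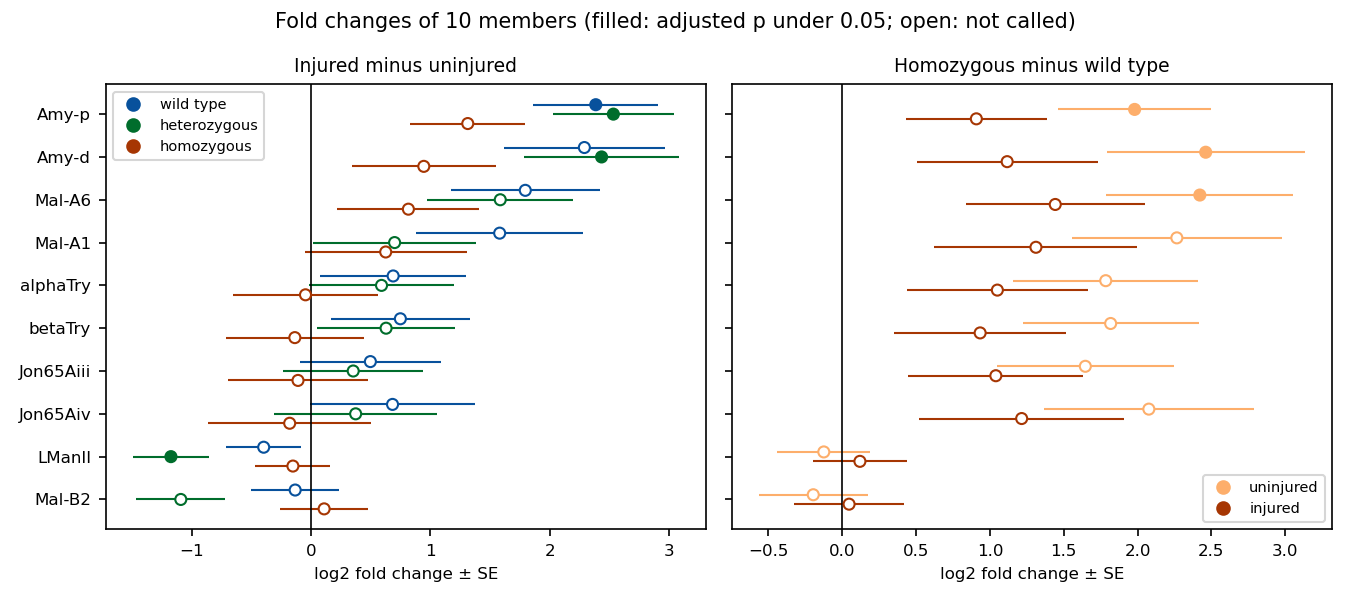
Log2 fold changes ± SE (x axis) of 10 members (y axis) after injury in each genotype (left) and between homozygous and wild-type flies in each injury state (right), from 4 libraries a group; filled points have an adjusted p under 0.05. Amy-p and Amy-d lie to the right of 0 in every comparison shown, and the filled points are Amy-p (2.38, 2.53 and 1.98), Amy-d (2.43 and 2.46), Mal-A6 (2.42) and LManII (-1.17).

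The injury responses of the genotypes were compared directly as differences of changes. No member was called in either difference by edgeR or DESeq2, where 0% of all genes were called, and 1 and 0 members had an unadjusted p under 0.05 in heterozygotes and homozygotes against wild type. For heterozygotes minus wild type the smallest p of each class belonged to LManI (-0.94 ± 0.42), Mal-B2 (-0.96 ± 0.52), gammaTry (1.78 ± 1.46), Jon66Ci (1.06 ± 1.26) and Amy-p (0.15 ± 0.71), each with an adjusted p of 1.00 in edgeR's test. Homozygotes minus wild type gave Amy-p -1.07 ± 0.70, Mal-A8 -1.41 ± 1.01, deltaTry -1.45 ± 1.12 and Jon99Cii -1.19 ± 0.98, each with an adjusted p of 0.934, and LManII 0.24 ± 0.45 (adjusted p = 0.945). These comparisons share the wild-type libraries.

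Averaged over the 3 genotypes, 12 libraries against 12, Amy-p, Amy-d and Mal-A6 were higher and LManII was lower in injured flies. Injury and handling cannot be told apart here. In edgeR's test Amy-p changed by 2.08 ± 0.29 (adjusted p = 1.36e-05), Amy-d by 1.89 ± 0.37 (adjusted p = 0.000783), Mal-A6 by 1.398 ± 0.35 (adjusted p = 0.0071) and LManII by -0.57 ± 0.18 (adjusted p = 0.0307). They were 4 of 43 members, where 18.3% of all genes were called, so the members' share lay below the background. Amy-p, Amy-d and Mal-A6 held with each of the 24 libraries left out, with adjusted p up to 5.84e-05, 0.00226 and 0.0192. LManII lost its call without 7 libraries: uninjured (0.0529) or injured wild-type library 1 (0.0521), injured wild-type library 4 (0.0563), uninjured heterozygous library 1 (0.0759), injured heterozygous library 2 (0.0586) or 3 (0.0504), or uninjured homozygous library 4 (0.0589). Without injured wild-type library 4 Mal-A8 gained a call (1.15, adjusted p = 0.0477), and without injured homozygous library 1 Mal-A4 did (1.22, adjusted p = 0.0362), for 4 and 5 members. Jon99Ci (-0.95 ± 0.38, adjusted p = 0.0858) and etaTry (0.49 ± 0.36, adjusted p = 0.363) had the smallest p among the proteases.

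Between uninjured homozygotes and wild type, 30 of 43 members had a difference above 0, against 51.7% of all genes. Between uninjured heterozygotes and wild type 39 of 43 did, against 51.7% again, and the members' median differences were 0.80 in homozygotes and 0.70 in heterozygotes. Most members move together between libraries, so such counts are not counts of independent genes. In homozygotes Mal-A6 was higher by 2.42 ± 0.63 (150 against 28.2 CPM, adjusted p = 0.0263), Amy-p by 1.98 ± 0.52 (34.6 against 8.80 CPM, adjusted p = 0.0266) and Amy-d by 2.46 ± 0.67 (38.2 against 7.05 CPM, adjusted p = 0.0356) in edgeR's test. These were 3 of 43 members, where 3.96% of all genes were called, and Mal-A6 alone did not overlap, against 10.4% of all genes. An unadjusted p under 0.05 was found for 16 members, but the share of all genes at that level is not given here, so this count has no background. In the same comparison the accessory gland marker Acp76A (-0.81 ± 0.21, adjusted p = 0.0284) and the eye marker norpA (-0.74 ± 0.21, adjusted p = 0.0393) were lower in homozygotes, and their part in the members' differences was not tested. Without injured wild-type library 4, which enters only the estimate of spread here, Mal-A8 was called as well (2.47, adjusted p = 0.0493). Among the other classes betaTry (1.82 ± 0.60, adjusted p = 0.106), Jon65Aiv (2.08 ± 0.71, adjusted p = 0.132) and LManIII (-0.56 ± 0.52, adjusted p = 0.792) had the smallest p.

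These uninjured calls depended on the libraries. Mal-A6 lost its call without wild-type library 2 (adjusted p = 0.063), 3 (0.114) or 4 (0.0845) or homozygous library 1 (0.0755) or 3 (0.101). Amy-p lost it without wild-type library 1 (0.0618), 3 (0.111) or 4 (0.0977) or homozygous library 1 (0.099) or 3 (0.133). Amy-d lost it without wild-type library 1 (0.0646), 3 (0.149) or 4 (0.127) or homozygous library 1 (0.117), 3 (0.115) or 4 (0.0532).

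In injured flies no member was called between homozygotes and wild type by edgeR or DESeq2. edgeR called 4.28% of all genes there, and 3 members had an unadjusted p under 0.05. Mal-B1 had a difference of 1.13 ± 0.39 (adjusted p = 0.114), Jon99Ci of 1.86 ± 0.70 (adjusted p = 0.155), gammaTry of 2.13 ± 1.10 (adjusted p = 0.335), Amy-p of 0.91 ± 0.48 (adjusted p = 0.348) and LManV of -0.85 ± 1.03 (adjusted p = 0.733). Amy-p did not overlap between these groups, as 8.8% of all genes.

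Averaged over the injury states, 11 of 43 members were higher in homozygotes, 0 were lower, and 9.11% of all genes were called. The glycosidases among them were Mal-A6 (1.93 ± 0.44, adjusted p = 0.0047), Amy-p (1.44 ± 0.35, adjusted p = 0.00881), Amy-d (1.79 ± 0.45, adjusted p = 0.012), Mal-A1 (1.79 ± 0.49, adjusted p = 0.0216) and Mal-A8 (1.77 ± 0.52, adjusted p = 0.0308). The proteases were Jon99Ci (1.73 ± 0.47, adjusted p = 0.0197), Jon65Aiv (1.65 ± 0.50, adjusted p = 0.038), betaTry (1.38 ± 0.42, adjusted p = 0.0381), alphaTry (1.42 ± 0.44, adjusted p = 0.0425), Jon65Aiii (1.34 ± 0.42, adjusted p = 0.0465) and kappaTry (1.09 ± 0.35, adjusted p = 0.0498) in edgeR's test. Among the mannosidases LManIII had the smallest p (-0.41 ± 0.39, adjusted p = 0.646). The members' median difference was 0.74, against 0.00 over all genes.

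Mal-A6, Amy-p and Amy-d kept this call with each of the 16 libraries left out, with adjusted p up to 0.0136, 0.0283 and 0.0319. Jon99Ci lost it without injured wild-type library 2 (0.0534) or 4 (0.0519) or uninjured homozygous library 3 (0.0505), and Mal-A1 without injured wild-type library 2 (0.0505) or uninjured homozygous library 3 (0.0577). The other 6 lost it without any of 8 libraries: uninjured wild-type 2 or 3, injured wild-type 2 or 4, uninjured homozygous 1 or 3, or injured homozygous 3 or 4. Further losses followed without injured wild-type library 1 (all of the 6 but kappaTry), uninjured wild-type library 4 (Mal-A8, alphaTry and kappaTry), injured homozygous library 2 (betaTry, alphaTry, Jon65Aiii and kappaTry) and uninjured homozygous library 4 (kappaTry). The adjusted p in these fits lay between 0.0525 and 0.119, and without injured wild-type library 4, which holds the eggshell transcripts, 4 members were called in place of 11.

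Heterozygotes and wild type gave no called member in uninjured flies (0.498% of all genes called), in injured flies (0.296%) or on average (1.49%), by edgeR or DESeq2, with 6, 1 and 10 members at an unadjusted p under 0.05. In uninjured flies edgeR gave LManI 0.78 ± 0.29 (adjusted p = 0.36), Jon25Bii 2.07 ± 0.89 (adjusted p = 0.453), deltaTry 1.82 ± 0.82 (adjusted p = 0.479), Mal-A1 1.29 ± 0.69 (adjusted p = 0.589) and Amy-p 0.78 ± 0.52 (adjusted p = 0.695). No member's groups were apart there, against 5.59% of all genes. In injured flies gammaTry had 2.96 ± 1.08 (adjusted p = 0.565), with no overlap, as 3.89% of all genes. The other classes gave Amy-p 0.93 ± 0.48 (adjusted p = 0.87), Mal-B1 0.70 ± 0.39 (adjusted p = 0.919), Jon65Aiv 1.18 ± 0.69 (adjusted p = 0.955) and LManIII 0.51 ± 0.55 (adjusted p = 1.00).

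On average over the injury states, heterozygotes minus wild type gave gammaTry 2.07 ± 0.73 (adjusted p = 0.223), Jon25Bii 1.77 ± 0.64 (adjusted p = 0.244), Amy-p 0.86 ± 0.35 (adjusted p = 0.324), Mal-B1 0.57 ± 0.28 (adjusted p = 0.424) and LManII 0.36 ± 0.22 (adjusted p = 0.558) in edgeR's test. gammaTry was at 0 in injured wild-type libraries 1 and 2 and in injured homozygous library 1, at a mean of 3.02 CPM over all libraries. Its reads may also be split with those of deltaTry, a likeness of sequence that was not checked here. Over both injury states, 39 of 43 members had a difference above 0 in heterozygotes, against 51.4% of all genes. In homozygotes 28 did, against 50.8%, and the members' median differences were 0.46 in heterozygotes and 0.74 in homozygotes. Heterozygous and homozygous flies were compared with the same wild-type libraries, so their differences are not independent.

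The authors' deposited tables held 42 or 43 of the members in each comparison. The share of all genes called in them is not given here, so their counts of members have no background to be read against. At an adjusted p under 0.05, the authors' deposited table called 14 members for uninjured homozygotes against wild type, all higher in homozygotes, where the fit here called 3. For injury in wild type the authors' deposited table called 6, all higher after injury, against 1 here. Injury in heterozygotes gave 6 members (3 higher and 3 lower after injury) and injury in homozygotes 1 in the authors' deposited tables, against 4 and 0 here. Injured wild type against injured homozygotes gave 8 (5 higher and 3 lower in homozygotes) and against injured heterozygotes 1, where 0 were called here, and uninjured wild type against heterozygotes gave 0 in both, again from the authors' deposited tables. For Amy-p the authors' deposited table gave an adjusted p of 0.0394 for injury in homozygotes.

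Other genes of digestion were read from lists chosen with earlier results of these data known. After injury, averaged over genotypes, 4 of 16 tested serine proteases outside the naming rule rose and 1 fell, against 11.6% and 6.71% of all genes. CG8952 rose by 1.49 ± 0.15 (edgeR adjusted p = 1.60e-07), Phae2 by 1.66 ± 0.23 (adjusted p = 1.24e-05) and Phae1 by 1.07 ± 0.27 (adjusted p = 0.00752). Of 17 carboxypeptidases and aminopeptidases 1 rose and 2 fell, and of 12 lipases 1 fell (CG18258, -0.51 ± 0.08, adjusted p = 3.06e-05). Among 13 other glycosidases 4 rose and 1 fell, with the lysozyme LysD at 0.80 ± 0.23 (adjusted p = 0.0156).

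Against the same 11.6% of all genes higher and 6.71% lower, of 11 peritrophic matrix and brush border genes 5 rose and 0 fell, with the class I myosin Myo31DF at 1.04 ± 0.08 (edgeR adjusted p = 8.44e-10) and the mucin-type gene Muc68E at 1.22 ± 0.29 (adjusted p = 0.00404). Within single genotypes, 1 of these genes was called in each. Of 11 fasting-response genes 6 rose and 0 fell on average, with 2 called in wild type, 2 in heterozygotes and 5 in homozygotes. They included Pepck1, an enzyme of gluconeogenesis, by 1.81 ± 0.15 (adjusted p = 4.55e-09), and Thor, the translation repressor 4E-BP, by 1.17 ± 0.10 (adjusted p = 1.36e-08). The fasting genes' summed level was 629.9 to 853 CPM in uninjured and 1012 to 1513 CPM in injured wild type, 603 to 729 and 1077 to 1393 CPM in heterozygotes, and 495 to 673 and 1200.4 to 1832 CPM in homozygotes. Thor and Pepck1 carried most of that sum, at a mean of 576 CPM uninjured and 1077 CPM injured in wild type. The other 9 genes overlapped between uninjured and injured libraries in wild type (169 to 201 and 193 to 245 CPM) and heterozygotes (158 to 227 and 190.4 to 228 CPM), but not in homozygotes (164 to 185 and 206 to 284 CPM). The eye marker chp (-0.39 ± 0.12, adjusted p = 0.0267) and the fat body marker apolpp (-0.47 ± 0.14, adjusted p = 0.0235) fell after injury in edgeR's test. The median change was -0.19 for the 7 eye markers. For the 2 fat body markers tested it was 0.24, so the other one went the other way and was not called. The part of these lists in the amylase result was not tested. Of 18 regulators of digestive enzymes 3 rose, a share near that of all genes, and of 11 sugar transport and absorption genes 1 rose and 2 fell.

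In homozygotes against wild type, averaged over injury states, 2 of 16 other serine proteases and 3 of 11 peritrophic matrix and brush border genes were higher and 0 were lower, against 4.62% of all genes higher. Muc68D was higher by 1.07 ± 0.15 (edgeR adjusted p = 1.87e-05) and CG12374, a carboxypeptidase, by 2.12 ± 0.56 (adjusted p = 0.0153), at 1959 against 471 CPM. Of 17 carboxypeptidases and aminopeptidases CG12374 was the 1 higher, and 1 was lower (CG8774, -0.50 ± 0.10, adjusted p = 0.00154). Of 13 other glycosidases 1 was higher. Of 12 lipases 1 was lower (CG18258, -0.60 ± 0.09, adjusted p = 8.82e-05), as was 1 of 11 sugar transport and absorption genes (sut3, -0.48 ± 0.13, adjusted p = 0.0157). Of 5 accessory gland markers, 1 was lower (Acp76A), and of 7 eye markers and 6 testis markers 0 were called on average. Of 2 fat body markers tested, apolpp was higher by 0.62 ± 0.17 (edgeR adjusted p = 0.0249). The median of the 2 was -0.40, so the other one went the other way and was not called. The part of tissue make-up in the homozygous difference was not tested.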

How the data were processed

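RNA-seq was made from whole male flies with the Illumina TruSeq RNA kit from 1 µg of total RNA, per the labels' protocols. CASAVA, STAR 2.4.2a, RSEM 1.2.22, edgeR 3.10.5 and dm6 are named in the submitters' processing notes. The values used are the expected counts per gene that the authors deposited, all whole numbers (0 were not whole). The deposited expected counts per transcript, and the log2 fold changes and adjusted p-values of the authors' deposited tables, were used as well. Strand use is not given in the sources used here.

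Counts were fitted with edgeR 4.0.16 (R 4.3.3): TMM scaling, filterByExpr, 1 mean per group over 24 libraries (18 residual degrees of freedom), the quasi-likelihood F-test, two-sided, with Benjamini-Hochberg adjustment over 13868 genes. The SE is the log2 fold change divided by the root of F. CPM use effective library sizes, and spread uses log2(CPM + 1). The method was tested on simulated data. DESeq2 1.42.0, other filters and scalings, a robust fit, a replicate block and leaving out each library were tried. Of 17768 genes, 1271 had no count. Folds and tests are given for called members and for the smallest p of each class in each comparison. Shares of all genes called are given only for the main fit at an adjusted p under 0.05. Counts of members at an unadjusted p, in other fits or with libraries left out have no such share beside them. Members and lists were chosen with earlier results of these data known.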

Additional observations from a re-analysis of the deposited data

Results flagged for a closer look

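In 7 of 300 groups of 4 libraries examined, the highest library stood far from the other 3, where chance alone would set apart about 1 in 20 groups. In uninjured wild-type library 1, LManVI stood at 50.1 CPM (4.32 to 9.52 in the others) and Mal-B1 at 5.68 CPM (1.47 to 2.02). In injured wild type, Jon99Ci stood at 8.17 CPM in library 3 (1.53 to 2.28), and library 2 had Mal-B2 at 87.0 CPM (48.0 to 53.4) and the summed Mal-B genes at 91.2 CPM (50.5 to 55.2). Jon25Bii stood at 59.6 CPM in uninjured heterozygous library 3 (2.63 to 7.39). The summed LMan genes stood at 210.4 CPM in injured heterozygous library 1 (75.5 to 91.8). Causes were not tested.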

How the results depend on the processing

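DESeq2 called 2 members for injury in wild type in place of 1. Fitting only the groups compared gave 2 for injury in heterozygotes in place of 4 and 1 for uninjured homozygotes against wild type in place of 3. A robust fit gave 0 for the latter and 5 in place of 11 for homozygotes averaged over injury states. With log2(CPM + 5) the members' median SD was 0.786, against 0.174 over all genes. The causes were not tested.

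With each library left out, members called ranged from 1 to 2 for injury in wild type, 1 to 5 in heterozygotes and 0 to 0 in homozygotes, and from 3 to 5 on average. Homozygotes against wild type ranged from 0 to 5 uninjured, 0 to 1 injured and 3 to 13 on average. Heterozygotes against wild type and both differences of injury responses stayed at 0, and the median SD ranged from 0.911 to 1.05. LManIII in uninjured homozygotes against wild type ranged from -0.88 to 0.0085, the latter without uninjured wild-type library 1. Amy-p in the heterozygous difference of injury responses turned to -0.15, -0.07, -0.01, -0.07 and -0.23 without uninjured wild-type 2, injured wild-type 4, uninjured heterozygous 2 or 4 and injured heterozygous 1, and reached 0.78 without uninjured heterozygous 3.

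Libraries sharing a replicate number did not deviate together: the median correlation was -0.0263 (-0.539 to 0.445), 23 of 60 pairs exceeded 0.1, and 5 of 24 libraries were closest to their own number. With the number as a replicate block, 1, 3 and 0 members were called for injury in wild type, heterozygotes and homozygotes, 4 for injury on average, 2 for uninjured and 11 for averaged homozygotes against wild type, and 0 elsewhere. Genes with few counts, such as Jon74E and gammaTry, were measured least precisely.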
